A study of Mus musculus with 6 samples.

Results

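The mitochondrial ribosomal protein genes of the mouse were taken as the 77 rows of the deposited table whose symbol starts with Mrpl or Mrps followed by a number, out of 21878 rows in all. The 77 comprised 48 Mrpl and 29 Mrps genes, each with a single row, and lay on 17 chromosomes. They were read in bulk RNA sequencing of unsorted prefrontal cortex from 3 Gls1_CamkIIaCre and 3 control mice. Gls1_CamkIIaCre mice were mosaic heterozygotes that carried the CamKIIα-Cre transgene and 1 floxed allele, and control mice were littermates that carried the same Cre transgene with no floxed allele and are labelled WT for genotype. Both groups therefore carried Cre. The CamKIIα promoter is known to drive it mainly in excitatory neurons of the forebrain, whereas the RNA came from all cells of the tissue. The labels give neither age, sex nor strain. The question put to the data here is where the genes of the mitochondrial translation machine stand between these mice.

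Mitochondria translate the few messages encoded in their own DNA, all for subunits of the oxidative phosphorylation complexes, on ribosomes of their own. The RNA of these ribosomes is made in the organelle, whereas every protein of them is encoded in the nucleus, made in the cytosol and imported. Mrpl genes encode proteins of the large subunit, which joins amino acids, and Mrps genes those of the small subunit, which reads the message. Some of these proteins have a counterpart in the bacterial ribosome and others were added in the mitochondrial lineage. A few names depart from the place of the protein: Mrps30 and Mrps18a sit in the large subunit, and Mrps36 is known foremost as a subunit of the 2-oxoglutarate dehydrogenase complex, which handles the carbon of glutamate in the tricarboxylic acid cycle. Neurons depend heavily on oxidative phosphorylation.

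All 77 genes passed the filter on low counts, with between 126 and 1057 reads per gene and library, in libraries of 17987807 to 19330961 counts. In CPM (counts scaled to the library's depth with TMM factors), the average of a gene over the 6 libraries ran from 7.64 to 54.9, and the median spread between mice of a group, as a coefficient of variation, was 5.95% in Gls1_CamkIIaCre and 5.15% in control mice. Markers of excitatory neurons fixed for the check were all detected, with a summed level of 5193 to 5725 CPM in Gls1_CamkIIaCre and 5014 to 5269 CPM in control libraries. Of these 6 markers 5 had a log2 fold change above 0, and Slc17a7 was at -0.02. At an unadjusted edgeR p under 0.05, 4 of the 6 were higher, against 11.1% of all genes tested. Only Neurod2 (0.26, edgeR adjusted p = 0.0387), named after its value was seen, was called higher, as were 3.95% of all genes. Camk2a, whose promoter drives Cre, stood at 3562 ± 187 CPM in Gls1_CamkIIaCre and 3256 ± 58.3 CPM in control mice (SD, n = 3 each, edgeR adjusted p = 0.0602). Markers of other cells and of a neighbouring region, where called, were called in the other direction. Interneurons, astrocytes and microglia each had 1 of 6 markers with a log2 fold change above 0, at 0.13, 0.09 and 0.09. That of astrocytes was higher at an unadjusted edgeR p under 0.05. The 10 striatum markers summed to 304 to 349 CPM in Gls1_CamkIIaCre against 774 to 1295 CPM in control libraries, and 8 of them were called lower by edgeR's quasi-likelihood test at an adjusted p under 0.05, as were 4.29% of all 14440 genes tested. All 5 meningeal fibroblast markers were called lower and summed to 40.4 to 46.4 CPM in Gls1_CamkIIaCre and 57.5 to 69.6 CPM in control libraries. Of 6 markers each, 3 were called lower for oligodendrocytes, with sums of 2944 to 3372 CPM in Gls1_CamkIIaCre and 3228 to 3825 CPM in control libraries, for interneurons, with 969 to 1160 CPM in Gls1_CamkIIaCre and 1146 to 1250 CPM in control libraries, and for endothelial and mural cells, with 308 to 326 CPM in Gls1_CamkIIaCre and 331 to 366 CPM in control libraries. Again of 6 each, 2 were called lower for microglia, with sums of 271 to 297 CPM in Gls1_CamkIIaCre and 300 to 329 CPM in control libraries, and for astrocytes, with 1210 to 1272 CPM in Gls1_CamkIIaCre and 1290 to 1327 CPM in control libraries. For oligodendrocyte precursors 2 of 4 were called lower, with sums of 152 to 167 CPM in Gls1_CamkIIaCre and 179 to 183 CPM in control libraries, and for blood 2 of 5, with 58.0 to 75.6 CPM in Gls1_CamkIIaCre and 76.1 to 90.6 CPM in control libraries. No marker of these lists was at 0. Their part in the differences described here was not tested. In bulk tissue, fewer cells of a type and less RNA per cell cannot be told apart.

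Promoters of the genes that the results turn on are shown first. Each window is from RefSeq on GRCm38.p6 and runs from 250 bases before to 50 after the start site, 5′ to 3′ along the gene. Such a window was found for 68 of the 77 genes. Capitals mark matches, on either strand, to the core letters of 3 kinds of factor known for promoters of mitochondrial genes: CCGGAAG or CTTCCGG for ETS factors such as GABP, AAGATGGC or GCCATCTT for YY1, and the longer palindrome of NRF1. Mrpl52 (large subunit, no bacterial counterpart; window chr14:54426659-54426958, plus strand) is shown because its difference had the smallest p of all members. Mrpl53, another large-subunit protein of the mitochondrial lineage (chr6:83108858-83109157, plus strand), lay below control in every mouse. Mrps27, a pentatricopeptide repeat protein of the small subunit (chr13:99344536-99344835, plus strand), and Mrpl3, a large-subunit protein with a bacterial counterpart (chr9:105053018-105053317, plus strand), are the pair that lay above control in every mouse. Mrpl32, a large-subunit protein whose precursor is cut by the m-AAA protease before it is built in (chr13:14612988-14613287, minus strand), had the highest fold change and holds an NRF1 match.
Mrpl52: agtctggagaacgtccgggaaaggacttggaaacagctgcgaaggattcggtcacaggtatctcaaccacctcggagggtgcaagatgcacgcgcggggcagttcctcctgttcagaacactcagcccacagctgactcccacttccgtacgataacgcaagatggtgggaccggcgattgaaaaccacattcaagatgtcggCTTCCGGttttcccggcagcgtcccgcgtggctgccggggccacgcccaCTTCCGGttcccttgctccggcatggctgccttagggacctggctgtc
Mrpl53: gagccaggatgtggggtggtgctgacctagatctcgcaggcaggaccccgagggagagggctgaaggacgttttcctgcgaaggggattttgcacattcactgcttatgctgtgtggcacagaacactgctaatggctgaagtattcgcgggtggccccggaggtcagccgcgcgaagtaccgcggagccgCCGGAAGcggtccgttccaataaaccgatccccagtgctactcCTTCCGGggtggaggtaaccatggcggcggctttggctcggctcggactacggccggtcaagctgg
Mrps27: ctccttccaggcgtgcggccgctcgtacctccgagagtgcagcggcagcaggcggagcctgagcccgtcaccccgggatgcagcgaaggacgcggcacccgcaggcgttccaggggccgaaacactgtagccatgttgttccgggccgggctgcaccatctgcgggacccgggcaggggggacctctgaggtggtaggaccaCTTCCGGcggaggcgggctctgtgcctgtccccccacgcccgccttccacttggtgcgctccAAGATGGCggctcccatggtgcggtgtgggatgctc
Mrpl3: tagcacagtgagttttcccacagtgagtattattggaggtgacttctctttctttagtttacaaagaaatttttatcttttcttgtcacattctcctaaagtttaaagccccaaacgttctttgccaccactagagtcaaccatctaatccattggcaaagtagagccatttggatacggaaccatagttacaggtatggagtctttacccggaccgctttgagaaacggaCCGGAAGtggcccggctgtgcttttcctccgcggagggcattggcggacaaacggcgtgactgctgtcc
Mrpl32: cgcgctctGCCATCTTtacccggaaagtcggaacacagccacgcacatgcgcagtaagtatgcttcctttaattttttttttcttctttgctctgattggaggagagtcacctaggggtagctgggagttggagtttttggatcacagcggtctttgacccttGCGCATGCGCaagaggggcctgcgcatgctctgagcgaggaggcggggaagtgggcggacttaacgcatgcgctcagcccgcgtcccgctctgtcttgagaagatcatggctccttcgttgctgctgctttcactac

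These letters were counted over all promoters. Of 74 windows of the members, 33.8% held the ETS letters, against 15.3% of 14706 windows of all tested genes and 8.86% of all 32851 windows. The YY1 letters stood in 16.2% of the members' windows, against 3.9% of the windows of tested genes and 2.75% of all. The exact NRF1 letters stood in 4.05%, against 1.84% and 0.971%, in Mrpl32, Mrpl39 and Mrpl9. None of these motifs contains another, though the ends of the YY1 and ETS letters can overlap. The median log2 fold change (Gls1_CamkIIaCre over control) was -0.10 over the 25 genes with an ETS match and -0.06 over the 43 without, and -0.06 over the 12 genes with a YY1 match against -0.08 over the 56 without. It was -0.02 over the 3 genes with an NRF1 match and -0.08 over the 65 without. A match describes letters only.

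No mitochondrial ribosomal protein gene passed the test between the groups, but most of them lay a little below control. Of the 77 genes, 70 had a log2 fold change below 0, against 50.8% of all 14440 genes tested. The median over the 77 was -0.09, against -0.0024 over all genes. Corrected for GC content and transcript length, 46 of the 77 lay below 0 with a median of -0.02, against 43.5% and 0.02 over all genes. None was called higher or lower by edgeR's quasi-likelihood test at an adjusted p under 0.05, where 8.24% of all genes were called (3.95% higher and 4.29% lower), and none was called by DESeq2 or limma voom. Other settings called some lower and none higher: 1 with upper-quartile factors, 1 among genes with a mean of 50 counts or more, 4 and 6 with limma on FPKM with pseudocounts of 1 and 0.1, 3 without Gls1_CamkIIaCre 1 and 1 without control 3. At an unadjusted edgeR p under 0.05, 14 genes (18.2%) were lower and 0 higher, against 11.3% and 11.1% of all genes. The standard errors of the 77 log2 fold changes lay between 0.051 and 0.145, with a median of 0.08.

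**Figure D1:**
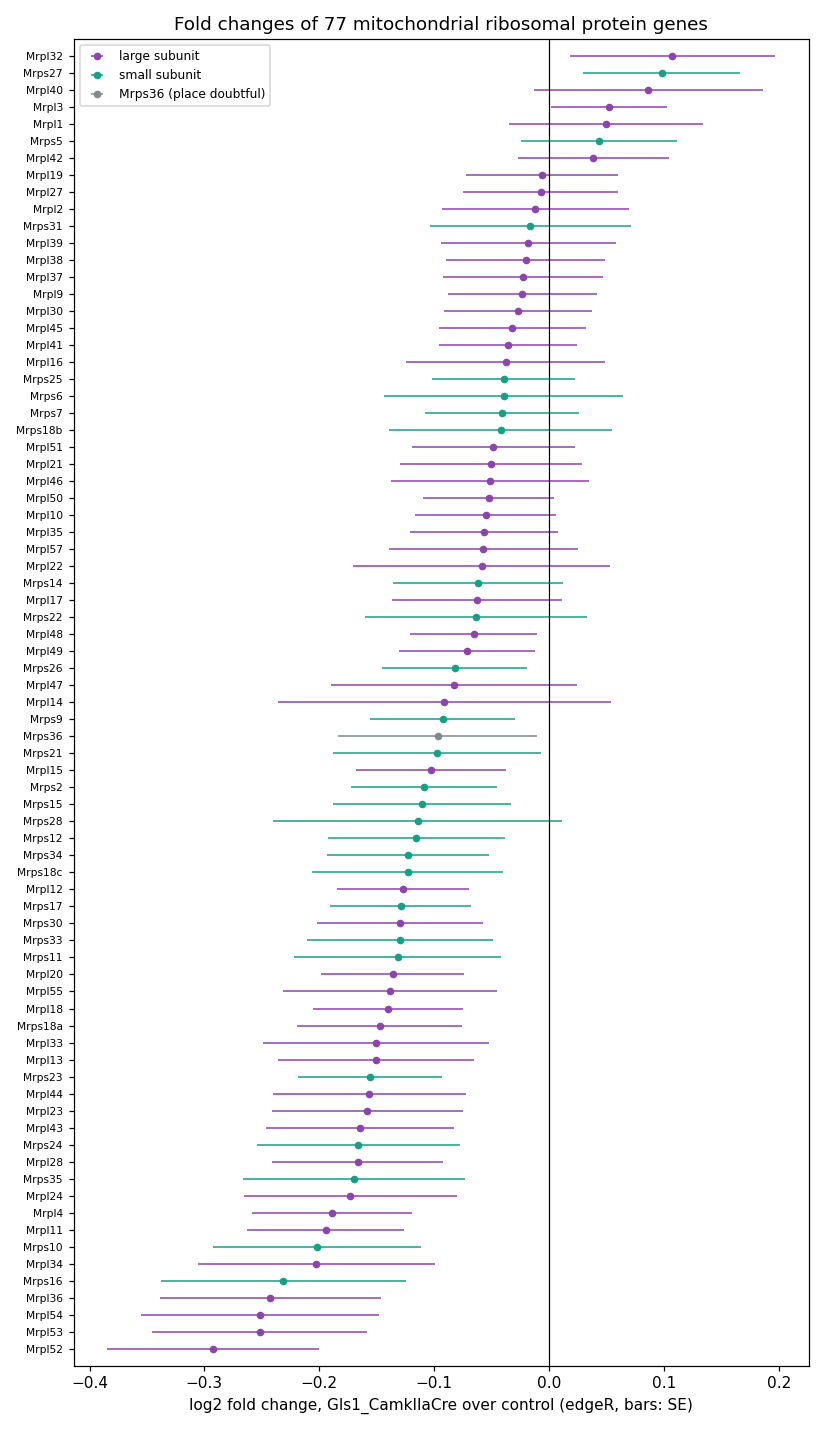
Log2 fold change of each mitochondrial ribosomal protein gene, Gls1_CamkIIaCre over control (x axis; points with SE bars from edgeR, n = 3 mice a group), ordered from highest to lowest and coloured by ribosomal subunit. Of the 77 points, 70 lie below 0, from -0.29 for Mrpl52 to 0.11 for Mrpl32, and the 4 lowest points are all of the large subunit.

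The sum of the 77 genes was close to constant within a group. It was 1930, 1926 and 1949 CPM in Gls1_CamkIIaCre libraries 1, 2 and 3, against 2073, 2029 and 2040 CPM in control libraries 1, 2 and 3. The groups did not overlap in this sum, which averaged 1935 ± 12.2 CPM in Gls1_CamkIIaCre and 2047 ± 23.0 CPM in control mice (SD, n = 3 each), a difference of -5.46% without any correction for length. Taken gene by gene, the mean log2 level relative to each gene's own mean was -0.05, -0.06 and -0.04 in the Gls1_CamkIIaCre libraries, and 0.07, 0.03 and 0.03 in the control libraries, highest in control 1. Without control 1 the median log2 fold change of the 77 genes was -0.08, and 61 of them lay below 0.

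**Figure D2:**
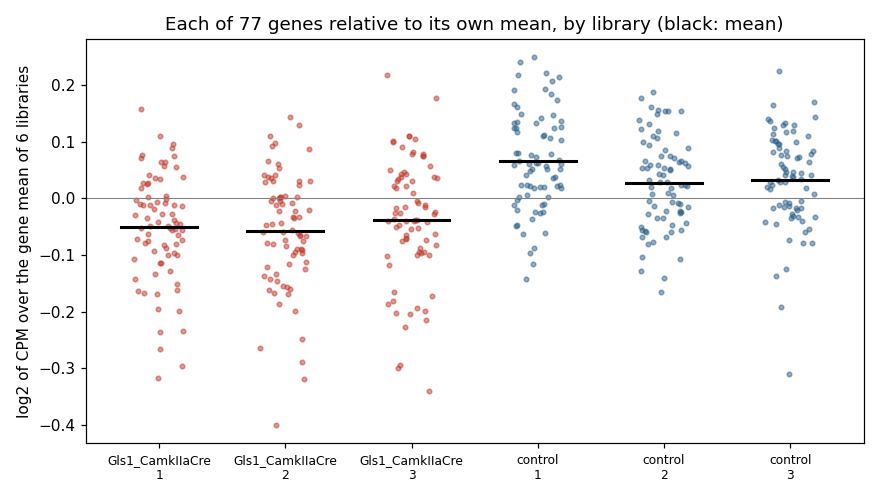
Level of each of the 77 genes in each library as log2 of its CPM over its mean of the 6 libraries (y axis; points are genes, black bars the mean over the genes). The black bars lie at -0.05, -0.06 and -0.04 in the Gls1_CamkIIaCre libraries and at 0.07, 0.03 and 0.03 in the control libraries, and the points of every library overlap those of the others.

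In 20 of the 77 genes (26.0%) every Gls1_CamkIIaCre library lay below every control library, and in 2 (2.6%) every Gls1_CamkIIaCre library lay above. Over all genes tested these shares were 13.6% and 13.1%. The 2 genes above were Mrps27 and Mrpl3. A difference between the subunits was not tested. The 50 genes whose protein sits in the large subunit had a median log2 fold change of -0.06, with 45 below 0, and the 26 of the small subunit one of -0.11, with 24 below 0. The large-subunit genes summed to 1308 ± 12.8 CPM in Gls1_CamkIIaCre and 1381 ± 20.5 CPM in control mice, a difference of -5.25%. Those of the small subunit summed to 607 ± 9.85 CPM in Gls1_CamkIIaCre and 645 ± 2.99 CPM in control mice (SD, n = 3 each), a difference of -5.88%. The 47 genes with a bacterial counterpart had a median of -0.10 and the 30 without one a median of -0.06.

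Among large-subunit genes, Mrpl52 came closest to a call. The gene lies on chromosome 14 from 54426909 to 54429750 (GRCm38.p6, plus strand) and had 13.1, 12.5 and 11.9 CPM in Gls1_CamkIIaCre libraries, against 15.7, 14.99 and 15.2 CPM in control libraries. The groups did not overlap, and the log2 fold change was -0.29 ± 0.092 (SE), with an edgeR adjusted p of 0.0533. It passed with upper-quartile factors (adjusted p = 0.0426), among genes with a mean of 50 counts or more (0.04999) and on the deposited FPKM with limma (0.00588 and 0.00461 with pseudocounts of 1 and 0.1). Leaving out one library at a time, it was not called, with log2 fold changes from -0.33 to -0.26, and corrected for GC content and transcript length it was at -0.18 (adjusted p = 0.276).

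Mrpl11, whose product forms the base of the stalk where translation factors bind, had 38.2, 34.6 and 32.8 CPM in Gls1_CamkIIaCre libraries, against 41.5, 42.0 and 37.3 CPM in control libraries (chromosome 19, 4962152 to 4966995, plus strand). One Gls1_CamkIIaCre mouse lay within the control range, and the log2 fold change was -0.19 ± 0.068 (SE, edgeR adjusted p = 0.0859). It was called lower without Gls1_CamkIIaCre 1 (-0.26, adjusted p = 0.048) and without control 3 (-0.25, 0.0399). Mrpl4, a conserved protein near the start of the peptide exit tunnel, had 31.8, 27.6 and 27.5 CPM in Gls1_CamkIIaCre libraries, against 32.6, 32.4 and 34.1 CPM in control libraries (chromosome 9, 21001252 to 21008839, plus strand). Its groups did not overlap, the log2 fold change was -0.19 ± 0.070 (edgeR adjusted p = 0.101), and it was called lower without Gls1_CamkIIaCre 1 (-0.26, 0.0424).

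Mrpl53 had 14.9, 13.6 and 13.2 CPM in Gls1_CamkIIaCre libraries, against 18.1, 15.9 and 15.7 CPM in control libraries (-0.25 ± 0.094, edgeR adjusted p = 0.104). Its reads may include some of Ccdc142, whose span overlaps it, since the use of strand in the counting is not stated. Mrpl54, also of the mitochondrial lineage, had 13.2, 10.4 and 11.2 CPM in Gls1_CamkIIaCre libraries, against 14.2, 13.5 and 13.8 CPM in control libraries (-0.25 ± 0.104, adjusted p = 0.146). Both genes lay below control in every mouse, with one Gls1_CamkIIaCre mouse close to the lowest control. Mrpl36, a short zinc-binding protein with a bacterial counterpart, had 15.3, 13.4 and 17.2 CPM in Gls1_CamkIIaCre libraries, against 18.7, 16.8 and 18.8 CPM in control libraries, so that the groups overlapped (-0.24 ± 0.096, adjusted p = 0.13).

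The small-subunit genes of smallest p were Mrps23 and Mrps10. Mrps23, a protein of the mitochondrial lineage, had 30.3, 30.5 and 31.7 CPM in Gls1_CamkIIaCre libraries, against 35.5, 33.0 and 34.5 CPM in control libraries. The groups did not overlap (-0.16 ± 0.063 SE, edgeR adjusted p = 0.138). Its span overlaps that of Cuedc1. Mrps10, a conserved protein of the small subunit's head, had 22.5, 18.8 and 18.5 CPM in Gls1_CamkIIaCre libraries, against 24.9, 23.3 and 20.6 CPM in control libraries, with overlap of the groups (-0.20 ± 0.090, adjusted p = 0.186).

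The 7 genes with a log2 fold change above 0 were Mrpl32, Mrps27, Mrpl40, Mrpl3, Mrpl1, Mrps5 and Mrpl42. Mrps27 had 26.1, 26.7 and 28.0 CPM in Gls1_CamkIIaCre libraries, against 24.3, 25.4 and 25.7 CPM in control libraries (0.10 ± 0.068 SE, edgeR adjusted p = 0.435). Mrpl3, the gene with most reads of the 77, had 55.9, 56.0 and 55.7 CPM in Gls1_CamkIIaCre libraries, against 53.9, 53.0 and 54.7 CPM in control libraries (0.05 ± 0.051, adjusted p = 0.605). Both lay above control in every mouse by a few percent. Mrpl32 had 17.4, 17.7 and 18.03 CPM in Gls1_CamkIIaCre libraries, against 16.1, 18.3 and 14.96 CPM in control libraries, where the control range enclosed the Gls1_CamkIIaCre values (0.11 ± 0.089, adjusted p = 0.526). Mrpl40 ranged from 16.2 to 22.1 CPM in Gls1_CamkIIaCre libraries, against 17.3 to 19.3 CPM in control libraries, and its log2 fold change of 0.09 turned to -0.01 without Gls1_CamkIIaCre 3. Mrps5, Mrpl1 and Mrpl42 had log2 fold changes of 0.04, 0.05 and 0.04, with overlapping groups, and that of Mrpl1 was -0.0002 and -0.001 on the 2 FPKM scales.

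**Figure D3:**
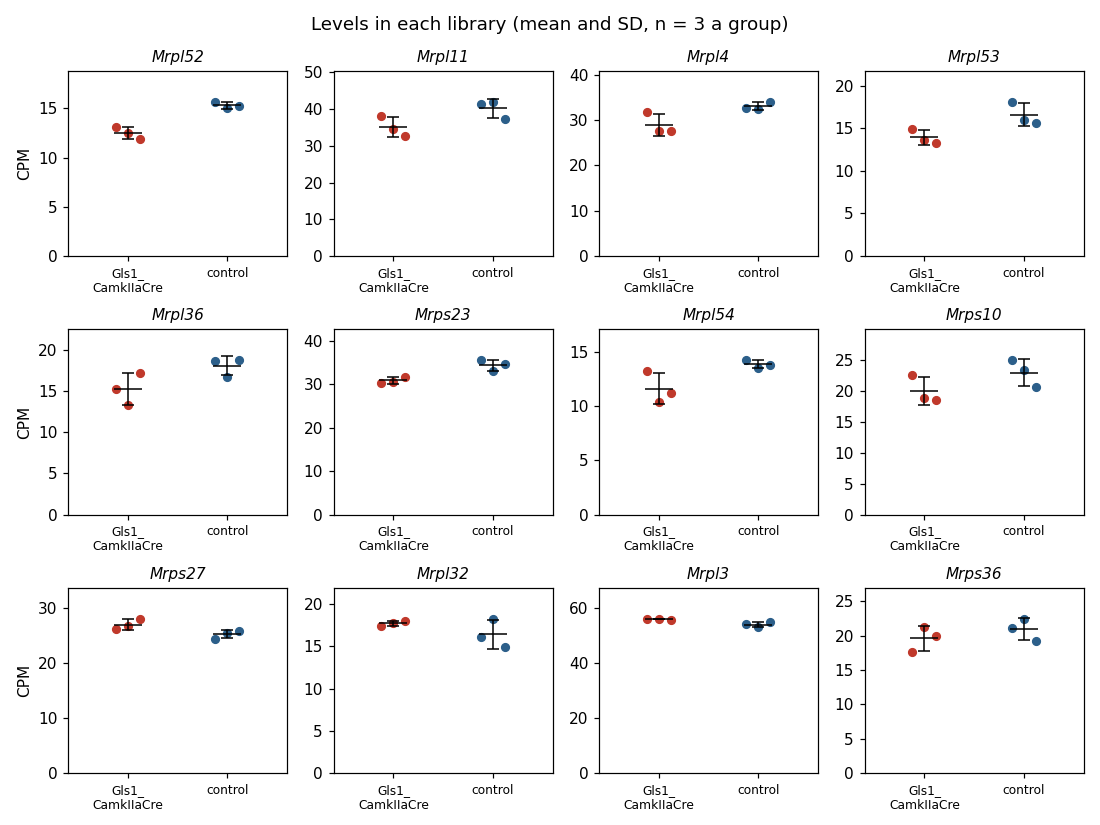
CPM (y axis, from 0) of 12 mitochondrial ribosomal protein genes in each mouse, Gls1_CamkIIaCre left and control right, with mean and SD (n = 3 each). Mrpl52, Mrpl4, Mrpl53, Mrps23 and Mrpl54 lie below control in every mouse, Mrps27 and Mrpl3 lie above, and the groups of the other 5 overlap.

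The genes whose proteins sit elsewhere than their names say showed no call. Mrps36, of the 2-oxoglutarate dehydrogenase complex, had 17.7, 21.2 and 19.9 CPM in Gls1_CamkIIaCre libraries, against 21.2, 22.5 and 19.2 CPM in control libraries, with overlap (-0.10 ± 0.087 SE, edgeR adjusted p = 0.562). Mrps30 had 20.7, 20.7 and 21.6 CPM in Gls1_CamkIIaCre libraries, against 23.2, 22.4 and 23.2 CPM in control libraries, without overlap (-0.13 ± 0.073, adjusted p = 0.309). The 3 paralogues that descend from the bacterial S18 family had log2 fold changes of -0.15 ± 0.072 for Mrps18a, which sits in the large subunit, -0.04 ± 0.097 for Mrps18b and -0.12 ± 0.083 for Mrps18c. Their adjusted p lay between 0.228 and 0.851 by edgeR. With the corrections for length and GC content and for length alone the sign turned for Mrps36 (0.0319 and 0.0267) and Mrps18b (0.0633 and 0.0592), and that of Mrps18b also without Gls1_CamkIIaCre 1 (0.0196).

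Levels can be compared between genes only per length, in the deposited FPKM (fragments scaled to gene length and library depth). The mean over the 6 libraries ran from 2.31 to 60.1 FPKM among the 77 genes, with a median of 15.9 FPKM, against 5.50 FPKM over all genes tested. The highest were Mrpl52 at 53.7 ± 1.36 FPKM in Gls1_CamkIIaCre and 66.4 ± 0.651 FPKM in control mice (SD, n = 3 each), and Mrps21, Mrpl12 and Mrpl20 at means of 38.9, 38.6 and 37.0 FPKM. Mrpl12, a conserved stalk protein, was lower in FPKM in every Gls1_CamkIIaCre library (35.9 ± 1.56 FPKM in Gls1_CamkIIaCre, against 41.2 ± 0.739 FPKM in control) and was called lower on the log2(FPKM + 1) scale by limma (-0.20, adjusted p = 0.0332) but not by edgeR on counts (-0.13, adjusted p = 0.193). The lowest were Mrpl15, Mrpl1, Mrpl17 and Mrps10, at means of 2.31, 2.41, 2.67 and 2.77 FPKM. This order moves with the length behind the authors' FPKM. The length implied by a gene's count and FPKM was 231 bases for Mrpl52 and 12351 bases for Mrpl15, against longest GENCODE transcripts of 856 and 4600 bases, and across the 77 genes FPKM and implied length had a Spearman correlation of -0.84. In 25 of the 77 genes the implied length was over 2 times or under 1/2 of the longest transcript.

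Fold changes went with transcript length across all genes tested. The median log2 fold change was -0.13 over 491 genes whose longest transcript was under 1000 bases, -0.08 from 1000 to 1500, -0.05 from 1500 to 2000, -0.03 from 2000 to 3000, -0.0011 from 3000 to 4000 and 0.03 over 5742 genes of 4000 bases or more. The median transcript of the 77 was 1849 bases long, against 3489 bases over all genes tested. In the same classes the medians of the mitochondrial ribosomal protein genes were -0.12 (17 genes), -0.13 (17), -0.04 (7), -0.06 (14), -0.06 (11) and -0.08 (11). Their median was close to that of all genes under 1000 bases and from 1500 to 2000 bases, and lay further below 0 in the other classes. No class holds more than 17 of the 77. By the length implied by FPKM, the medians were -0.14 over 18 members and -0.14 over all genes under 1000 bases. At 4000 bases or more they were -0.06 over 11 members against 0.02 over all genes. In the classes between, the members stood at -0.08 (13 genes), -0.06 (16), -0.06 (11) and -0.04 (8). All genes stood there at -0.07, -0.06, -0.04 and -0.02. After a correction of each library for transcript length and GC content, 59.7% of the 77 lay below 0, as given above, and none was called. With the correction for length alone the median was -0.02, again with 46 below 0, and with GC content alone -0.06, with 63 below 0. The part of transcript length in the difference was not tested beyond these corrections.

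**Figure D4:**
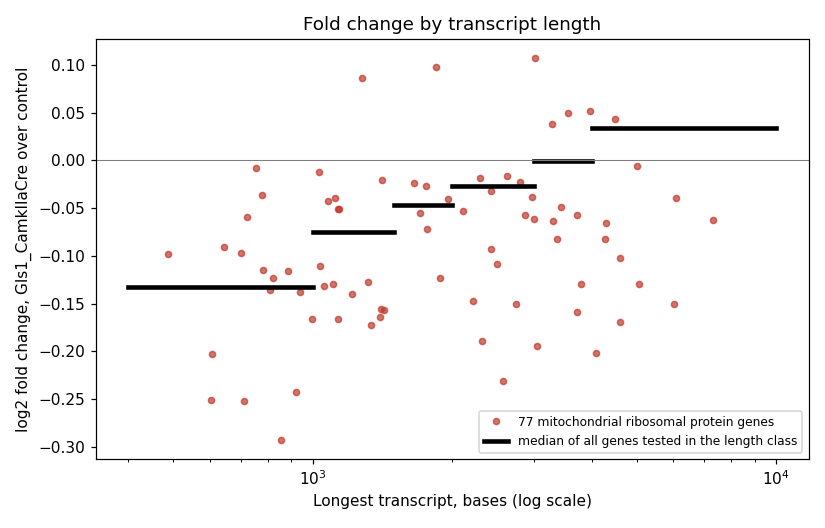
Log2 fold change, Gls1_CamkIIaCre over control (y axis), of each of the 77 genes against the length of its longest GENCODE transcript in bases (x axis, log scale). Black bars give the median of all genes tested in 6 length classes, from -0.13 under 1000 bases to 0.03 at 4000 bases or more, and most points lie around or below the bars.

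Some of the 77 genes start close to another gene on the opposite strand, so that each can be set beside its neighbour. Within 500 bases, 24 of the 68 genes with a promoter window had such a partner. The share over all genes was not counted. Mrps11 and Mrpl46, a small-subunit and a large-subunit gene, form one such pair of their own, with start sites 42 bases apart on chromosome 7. The window of Mrps11 (chr7:78782881-78783180, plus strand) covers both start sites and holds a YY1 match, in capitals.
Mrps11: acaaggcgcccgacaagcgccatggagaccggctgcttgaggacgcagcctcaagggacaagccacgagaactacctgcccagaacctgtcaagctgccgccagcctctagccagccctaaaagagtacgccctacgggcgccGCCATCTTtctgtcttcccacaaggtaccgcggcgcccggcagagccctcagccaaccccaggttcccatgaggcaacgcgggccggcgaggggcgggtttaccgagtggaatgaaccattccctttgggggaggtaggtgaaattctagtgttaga
Mrps11 had a mean of 13.9 ± 0.267 CPM in Gls1_CamkIIaCre and 15.2 ± 0.811 CPM in control mice (-0.13 ± 0.090 SE), and Mrpl46 one of 17.9 ± 0.257 CPM in Gls1_CamkIIaCre and 18.5 ± 1.77 CPM in control mice (-0.05 ± 0.086, SD, n = 3 each), with edgeR adjusted p of 0.424 and 0.787.

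For 19 pairs with a partner outside the family both genes were tested. The mitochondrial ribosomal protein genes had a median log2 fold change of -0.05, with 15 of 19 below 0, and the partners one of 0.06, with 15 of 19 above 0. Over all genes tested the median was -0.0024, with 50.8% below 0. In 14 of the 19 pairs the mitochondrial ribosomal protein gene had the lower log2 fold change of the pair. The median transcript was 1764 bases long for the mitochondrial ribosomal protein genes and 3214 bases for the partners. Partners that passed the test, chosen after their values were seen, were Rab6a, a small GTPase of the Golgi beside Mrpl48, and Zfp189, a zinc finger protein beside Mrpl50, both higher, and Ndufb5, a complex I subunit beside Mrpl47, and Fau, a cytosolic ribosomal protein precursor beside Mrpl49, both lower. Of all genes tested 3.95% were called higher and 4.29% lower. Rab6a averaged 759 ± 45.4 CPM in Gls1_CamkIIaCre and 672 ± 12.05 CPM in control mice (0.18 ± 0.042 SE, edgeR adjusted p = 0.0123), while Mrpl48 had a log2 fold change of -0.07. Zfp189 averaged 12.6 ± 1.29 CPM in Gls1_CamkIIaCre and 9.66 ± 0.0739 CPM in control mice (0.38 ± 0.107, adjusted p = 0.0308), while Mrpl50 had one of -0.05. Ndufb5 averaged 76.0 ± 2.05 CPM in Gls1_CamkIIaCre and 85.5 ± 4.45 CPM in control mice (-0.17 ± 0.050, adjusted p = 0.0377), and Fau 91.2 ± 1.63 CPM in Gls1_CamkIIaCre and 102 ± 5.70 CPM in control mice (-0.16 ± 0.048, adjusted p = 0.0394). These 4 were not examined under other settings. Spans that overlap, as those of Mrpl48 and Rab6a do, can share reads.

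**Figure D5:**
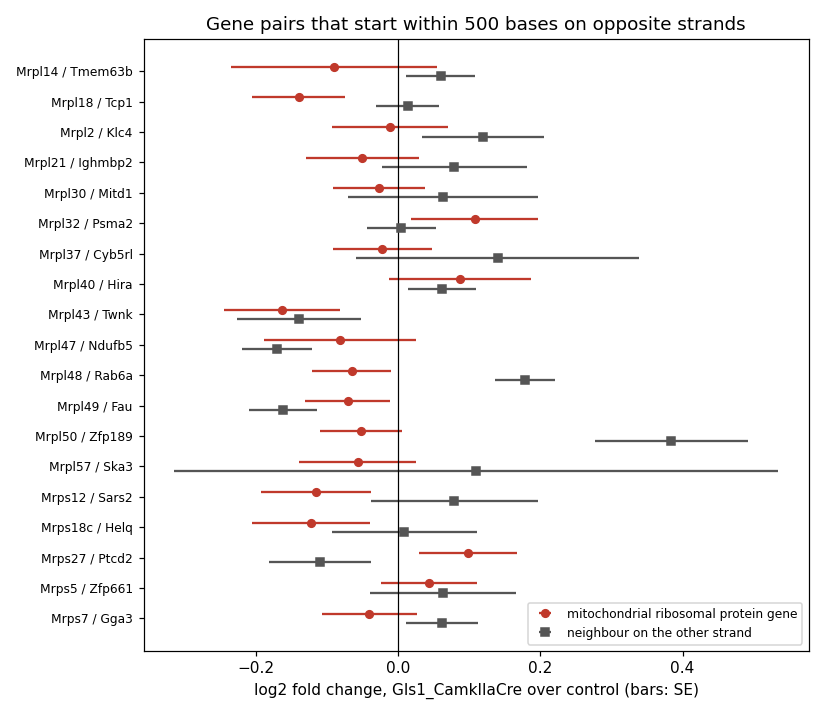
Log2 fold change, Gls1_CamkIIaCre over control (x axis, SE bars from edgeR, n = 3 mice a group), of 19 mitochondrial ribosomal protein genes (circles) and the gene that starts within 500 bases on the opposite strand (squares). The circles lie below 0 in 15 pairs and the squares above 0 in 15 pairs.

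Other genes of mitochondrial translation gave few calls. Over all genes tested 8.24% were called, and at an unadjusted edgeR p under 0.05 11.3% were lower and 11.1% higher. The 6 mitoribosomal proteins with other symbols (Dap3, Chchd1, Ptcd3, Aurkaip1, Gadd45gip1 and Ict1) all had a log2 fold change below 0, with a median of -0.07 and 0 called, and 0 at an unadjusted edgeR p under 0.05. Chchd1, of the small subunit, was the one of smallest p, at 22.2, 21.8 and 21.9 CPM in Gls1_CamkIIaCre libraries, against 25.1, 23.9 and 23.5 CPM in control libraries, without overlap (-0.14 ± 0.071 SE, edgeR adjusted p = 0.262). Of 13 translation factors 0 were called and 0 had an unadjusted p under 0.05, with a median of -0.04. Guf1, the counterpart of bacterial LepA, had 52.6, 53.4 and 52.6 CPM in Gls1_CamkIIaCre libraries, against 51.1, 50.2 and 46.3 CPM in control libraries (0.10 ± 0.055, adjusted p = 0.284). Of 28 genes of ribosome assembly and ribosomal RNA modification 0 were called and 1 was lower at an unadjusted p under 0.05, with a median of -0.07. That gene was Eral1, a GTPase that binds the RNA of the small subunit, at 14.4, 12.4 and 13.1 CPM in Gls1_CamkIIaCre libraries, against 15.5, 15.2 and 16.4 CPM in control libraries, without overlap (-0.24 ± 0.093, adjusted p = 0.129). Every Gls1_CamkIIaCre library lay below every control library in 1 of the 6 genes with other symbols (16.7%) and 0 of the 13 factors. The same held for 5 of the 28 assembly and modification genes (17.9%), against 13.6% of all genes.

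Of the 17 enzymes that load amino acids onto mitochondrial transfer RNAs, 13 had a log2 fold change above 0. The median over the 17 was 0.03, and 0 were lower by edgeR, also at an unadjusted p under 0.05. At that unadjusted threshold 3 of the 17 were higher, as were 11.1% of all genes. In 3 of the 17 (17.6%) every Gls1_CamkIIaCre library lay above every control library, against 13.1% of all genes. Among those that passed the test was Iars2, the isoleucyl enzyme, where 3.95% of all genes were called higher. It rose to 60.8, 59.7 and 65.9 CPM in Gls1_CamkIIaCre libraries, against 50.8, 55.8 and 52.8 CPM in control libraries, without overlap (0.23 ± 0.056 SE, edgeR adjusted p = 0.0157). The call of Iars2 was lost without Gls1_CamkIIaCre 3 (adjusted p = 0.0769), without control 1 (0.0763) and with limma on FPKM (0.1004 and 0.0948). The median transcript of these 17 genes was 3614 bases long.

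Of 11 genes of mitochondrial DNA transcription and upkeep 0 were called and 0 had an unadjusted p under 0.05, with a median of -0.11. Over all genes 8.24% were called (3.95% higher and 4.29% lower), and 11.3% were lower and 11.1% higher at that unadjusted edgeR threshold. Tfam, which packs mitochondrial DNA and starts its transcription, had 33.9, 35.5 and 37.6 CPM in Gls1_CamkIIaCre libraries, against 40.4, 40.7 and 35.8 CPM in control libraries (-0.13 ± 0.066 SE, edgeR adjusted p = 0.263). Of 10 nuclear regulators of mitochondrial genes, the median was 0.0003 and Pprc1, a coactivator related to PGC-1, was the only call. It rose to 25.7, 25.5 and 21.1 CPM in Gls1_CamkIIaCre libraries, against 19.96, 19.4 and 20.4 CPM in control libraries (0.27 ± 0.083, adjusted p = 0.0463), and the call was lost with DESeq2 (0.103), limma voom (0.0752), upper-quartile factors (0.0626), limma on FPKM (0.186 and 0.19), the correction for length and GC content (0.0576), and without Gls1_CamkIIaCre 1 (0.174) or 2 (0.196) or control 1 (0.106), 2 (0.141) or 3 (0.0633).

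The genes for proteins of the cytosolic ribosome, with a median transcript of 1100 bases, were set beside them. Of 80 tested, 78 (97.5%) had a log2 fold change below 0, with a median of -0.13, against 50.8% and -0.0024 over all genes. By edgeR 25 (31.2%) were called lower and 0 higher, against 4.29% and 3.95% of all genes. In 45 (56.2%) every Gls1_CamkIIaCre library lay below every control library, against 13.6% of all genes. The family summed to 10739 to 10911 CPM in Gls1_CamkIIaCre and 11219 to 12264 CPM in control libraries. Rpl23a fell to 148 ± 7.23 CPM in Gls1_CamkIIaCre mice, against 175 ± 7.69 CPM in control mice (SD, n = 3 each, -0.24 ± 0.046 SE, edgeR adjusted p = 0.00308), and Rpl22l1, a paralogue of Rpl22, to 29.2 ± 2.13 CPM in Gls1_CamkIIaCre mice, against 37.1 ± 2.90 CPM in control mice (-0.35 ± 0.072, adjusted p = 0.00527). Rps21 and Rplp1 were also called, at -0.24 and -0.19, but Rps21 not without Gls1_CamkIIaCre 2 (adjusted p = 0.0832) or control 1 (0.0557), and Rplp1 not without Gls1_CamkIIaCre 2 (0.0871) or control 1 (0.0568) or 2 (0.0761). The median standard error was 0.08 in the mitochondrial and 0.05 in the cytosolic family, and a difference between the families was not tested. After the correction for length and GC content Rpl23a (-0.10, adjusted p = 0.135), Rps21 (-0.10, 0.265) and Rplp1 (-0.05, 0.482) were not called, while Rpl22l1 was, with a range of -0.40 to -0.27 over all settings. Calls over the whole cytosolic family were not counted after this correction.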

How the data were processed

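Bulk RNA of prefrontal cortex from 3 Gls1_CamkIIaCre and 3 control mice was sequenced after SMARTer library preparation, per the labels' protocols. The authors deposited raw gene counts and FPKM values for 21878 rows. The submitters' processing notes name GRCm38, also listed as mm10. Not given in the sources used here are the aligner, the counter with its use of strand, and the FPKM tool. Counts were tested with edgeR 4.0.16 (quasi-likelihood, TMM factors, filterByExpr, Benjamini-Hochberg over all 14440 genes tested, adjusted p under 0.05) in R 4.3.3. Alternatives used DESeq2 1.42.0, limma 3.58.1 (voom, and log2 of the deposited FPKM plus 1 or 0.1), other factors and filters, and per-library splines with 4 degrees of freedom on length and GC content, known for 99.3% of genes tested. The edgeR test with TMM factors was tried on simulated data, whereas the alternatives, with the splines on length and GC content, were not. No pair of libraries within a group agreed within counting error, and each was counted as 1 sample. Pairs across the groups were not compared in this way. The check cannot show by itself that the samples are independent.

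The members and the gene lists were chosen with earlier results of these data known. Named members were those called, the 8 of smallest p in each direction (7 were above 0), the 4 highest and 4 lowest in FPKM, and Mrps36, Mrps30 and Mrps18a to c. In each other list they were every call where 6 or fewer, otherwise the 4 of smallest p, and with no call the 1 of smallest p. Neighbours and promoters were chosen after their values were seen. Coordinates and promoter windows are RefSeq's on GRCm38.p6, and lengths are those of the longest GENCODE M21 transcript. The levels of the floxed gene and of 1 gene of another list that this rule names are not reported here.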

Additional observations from a re-analysis of the deposited data

How the results depend on the processing

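No mitochondrial ribosomal protein gene was called higher under any alternative run. The count called lower, 0 in the edgeR fit, was 1 with upper-quartile factors and 1 with the filter raised to a mean of 50 counts, 4 and 6 with limma on log2(FPKM + 1) and log2(FPKM + 0.1), 2 at an adjusted p under 0.10, and 0 to 3 when one library was left out. The members' median log2 fold change, -0.09, was -0.11 with upper-quartile factors and -0.12 and -0.13 on the FPKM scales. It was -0.0218 with the correction for length and GC content. With length alone and GC alone, both chosen after seeing the data, it was -0.0244 and -0.0639. Over all genes it was -0.0024 in the edgeR fit, -0.0192 with upper-quartile factors, and -0.023 and -0.0312 on the FPKM scales. It was 0.0207 with length and GC, 0.0205 with length alone and 0.0236 with GC alone. Members less all genes came to -0.0887 in the edgeR fit, -0.089 with upper-quartile factors, and -0.0967 and -0.0977 on the FPKM scales. The difference was -0.0425 with length and GC, -0.0449 with length alone and -0.0875 with GC alone. The members below 0, 70 in the edgeR fit, numbered 46 with length and GC or length alone, and 61 to 69 when one library was left out. Over all genes, 571 higher and 619 lower calls (48.0% higher) became 429 and 749 with upper-quartile factors (36.4%), 122 and 550 (18.2%) and 126 and 607 (17.2%) on the FPKM scales, 491 and 359 (57.8%) with length and GC, 474 and 361 (56.8%) with length alone, 814 and 434 (65.2%) with GC alone, 898 and 964 at an adjusted p under 0.10, and 197 to 556 and 218 to 542 when one library was left out. The cause of these shifts was not tested.

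Replicate numbers were not taken to pair the samples, a question that the correlations between libraries cannot settle. Same-numbered libraries correlated at 0.139, -0.026 and 0.14 in their deviations from the group means. Gls1_CamkIIaCre 1 and 3 correlated best with the control of their own number, and Gls1_CamkIIaCre 2 with control 1 (0.0473). With the replicate block, 2 members were called lower (Mrpl11 and Mrpl52), and 863 genes higher and 895 lower over all. Signs turned in a few named genes. Mrpl40 ranged from -0.0108 (without Gls1_CamkIIaCre 3) to 0.209 when one library was left out, and Mrpl1 was at -0.0002 and -0.001 on the FPKM scales. With length and GC, and with length alone, Mrps21 was at 0.0472 and 0.0432, Mrps36 at 0.0319 and 0.0267, and Mrps18b at 0.0633 and 0.0592. When one library was left out, Mrps21 ranged from -0.2022 to 0.0202 and Mrps18b from -0.0793 to 0.0196, both highest without Gls1_CamkIIaCre 1. Gls2, a liver-type glutaminase at a log2 fold change of -0.02, with 20.1 ± 0.615 CPM in Gls1_CamkIIaCre and 20.4 ± 1.34 CPM in control mice, was at 0.0282, 0.0301 and 0.018 with length and GC, length alone and GC alone, and ranged from -0.0709 to 0.0108 when one library was left out, above 0 without Gls1_CamkIIaCre 1, control 1 or control 2. With 3 mice a group, the standard errors of single genes, between 0.051 and 0.145, limit which of them can be called.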
